A study of Mus musculus with 6 samples.

Results

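The 9 genes described here are *Mapk3*, which encodes the MAP kinase ERK1, and 8 genes that encode brakes on MAP kinases, the dual-specificity phosphatases *Dusp1*, *Dusp2*, *Dusp4*, *Dusp5*, *Dusp6* and *Dusp10* and the Sprouty proteins *Spry1* and *Spry2*. They were chosen by gene symbol, and all 9 were found among the 23183 symbols that the mRNA-seq files list for every library. The data came from CD4+CD8+ double positive (DP) thymocytes, the immature T cells of the thymus, sorted from C57BL/6 mice at 6 weeks of age. There were 3 libraries from Nsrp1f/f (WT) mice and 3 from Nsrp1f/fCD4Cre (NSrp70-cKO) mice. Both genotypes carried floxed *Nsrp1* alleles, and the cKO mice also carried a Cre transgene under CD4 control elements, which starts to act in late double negative thymocytes. The WT mice carried no Cre, so an effect of Cre and one of the deletion cannot be told apart.

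In a thymocyte, engagement of the T cell receptor (TCR) activates Ras, and a chain of kinases (RAF, MEK, ERK) passes the signal to the nucleus, where ERK activity is needed for positive selection. ERK switches on immediate early genes, and among its targets are genes for its own inhibitors. DUSP proteins remove phosphate from the activation loop of MAP kinases, and Sprouty proteins act further up, at the level of Ras and RAF. The mRNA of several DUSP and Sprouty genes therefore serves as a readout of recent ERK activity, although each also answers to other inputs.

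Promoter windows, from 250 bases before to 50 bases after the RefSeq gene start on GRCm38.p6, were found for 7 of the 9 genes and not for *Dusp4* and *Mapk3*. Of these, 3 are shown because they hold a CArG box or the core of a cyclic AMP response element, motifs of factors that act below MAP kinases. Capitals mark matches on either strand to the cyclic AMP response element (CRE, TGACGTCA), its core (TGACG), the AP-1 motif (TGANTCA), the CArG box, which is the motif of serum response factor, or the TATA box (TATAAA). The windows lie on chr19:53528895-53529194 on the plus strand for *Dusp5*, on chr17:26508423-26508722 on the minus strand for *Dusp1* and on chr2:127335909-127336208 on the plus strand for *Dusp2*. The RefSeq start of *Dusp1* lies inside the longer GENCODE span given with its values.
Dusp5: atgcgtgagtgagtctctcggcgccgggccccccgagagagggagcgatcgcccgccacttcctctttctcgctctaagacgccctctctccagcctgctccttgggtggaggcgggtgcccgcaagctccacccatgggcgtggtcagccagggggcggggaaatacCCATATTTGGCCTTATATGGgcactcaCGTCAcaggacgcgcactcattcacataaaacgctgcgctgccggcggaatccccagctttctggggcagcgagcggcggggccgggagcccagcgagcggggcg
Dusp1: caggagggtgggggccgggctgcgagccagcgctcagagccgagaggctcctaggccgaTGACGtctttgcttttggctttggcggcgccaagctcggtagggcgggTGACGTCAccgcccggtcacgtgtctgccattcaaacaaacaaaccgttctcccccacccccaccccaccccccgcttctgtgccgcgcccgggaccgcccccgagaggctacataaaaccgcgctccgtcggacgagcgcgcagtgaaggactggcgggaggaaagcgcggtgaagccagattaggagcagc
Dusp2: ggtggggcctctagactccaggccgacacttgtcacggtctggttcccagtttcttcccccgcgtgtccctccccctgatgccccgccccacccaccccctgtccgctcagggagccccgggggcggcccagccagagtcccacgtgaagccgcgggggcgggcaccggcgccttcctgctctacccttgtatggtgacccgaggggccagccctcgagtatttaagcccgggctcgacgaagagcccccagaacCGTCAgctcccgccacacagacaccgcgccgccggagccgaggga
The *Dusp5* window held a pair of adjoining CArG boxes, CCATATTTGG and CCTTATATGG, which began at positions -82 and -72 from the gene start. A CArG box was found in 1.63% of all 32851 windows of this length, and no other window of these 7 genes held one. The *Dusp1* window held a whole CRE at position -143, a motif found in 1.79% of all windows, and a separate CRE core at -191. The core alone, which the whole CRE contains, was found in 20.8% of all windows, also in those of *Dusp5* and *Dusp2*. AP-1 matches, found in 7.81% of all windows, and TATA matches, found in 13.6%, were not present in any of the 7. The motif of ETS factors (CCGGAA), to which several ERK substrates belong, was found in 14.9% of all windows and among the 7 in that of *Spry2*, at position 33. The *Dusp2* window consisted of G and C to 70.7%, against a median of 52.7% over all windows. These matches describe the letters of the windows, and binding to them was not measured here.

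The libraries differed in ways that bear on every value given here. FPKM (fragments per kilobase of transcript and per M mapped fragments, where M stands for mega) holds no read counts, but from the steps of 1 fragment at low genes the depth was estimated as 20.7 to 20.8 M fragments in WT and as 13.2, 20.6 and 17.4 M in cKO 1, 2 and 3. The summed FPKM of a library was 521296 to 531517 for WT and 701396 to 850548 for cKO. Between WT libraries the variance was at most 1.61 times what counting alone gives, and between cKO libraries it was 27.1 to 61.9 times that, so WT varied by little more than sampling noise. Nothing in the labels says that replicates came from separate mice, and p-values then measure only the spread between these libraries. *Nsrp1*, listed as *Ccdc55*, had an FPKM of 20.2 to 21.1 in WT, and cKO 1, 2 and 3 were at 85.6%, 76.4% and 72.6% of the WT mean (adjusted p = 0.00675 from limma). *Xist*, the RNA of the inactive X chromosome, was at 69.8 to 72.0 in WT and at 4.07 to 5.44 in cKO, and 4 genes of chromosome Y had values above 0 in cKO but were at 0 throughout WT, so that genotype and the sex of the mice cannot be told apart. Of 10 DP thymocyte markers, which included *Cd4*, *Cd8a* and *Rag1*, each had an FPKM of at least 20.1 in all 6 libraries, with a summed FPKM of 6671 to 6763 in WT and of 8823 to 11742 in cKO.

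The inhibitor genes were lower in NSrp70-cKO DP thymocytes for the most part, while *Mapk3* was not. *Dusp2*, *Dusp4*, *Dusp5*, *Dusp10* and *Spry1* fell, and their mean FPKM in cKO was between 0.491 (*Spry1*) and 0.721 (*Dusp4*) times that in WT. In each of these 5 the highest cKO library was below the lowest WT library, as in 33.3% of all genes tested, and in 1 member, *Mapk3*, the order was the opposite, as in 39.2%. Together, 6 of the 8 tested members had groups that did not overlap, against 72.5% of all genes. *Dusp1*, *Dusp6* and *Mapk3* did not pass the test, and *Spry2* was below the filter on low values. Values were tested with limma on log2(FPKM + 1) after scaling by size factors, for the 10326 genes that reached an FPKM of 1 in 3 libraries or more, with Benjamini-Hochberg adjustment and a threshold of 0.05. Of the 8 tested members, 5 were called lower in cKO against 29.8% of all genes tested, and 0 were called higher against 35.8%. In either direction 65.5% of all genes were called, so a call by itself sets no gene apart. At an unadjusted p under 0.05, which 7136 of the 10326 genes reached in either direction, 5 were lower and 1, *Mapk3*, was higher. The members had a median log2 difference of -0.47, against 0.039 over all genes tested. With WT reduced to 1 mean profile, a fit that takes the spread from the cKO libraries and assumes that WT varies alike, 0 of the 8 members were called in either direction (8.74% of all genes were lower and 7.16% higher). With cKO 2 also left out, limma called 5 lower, namely *Dusp1*, *Dusp2*, *Dusp5*, *Dusp10* and *Spry1*, against 19.6% of all genes, and 0 higher, against 23.5%.

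**Figure D1:**
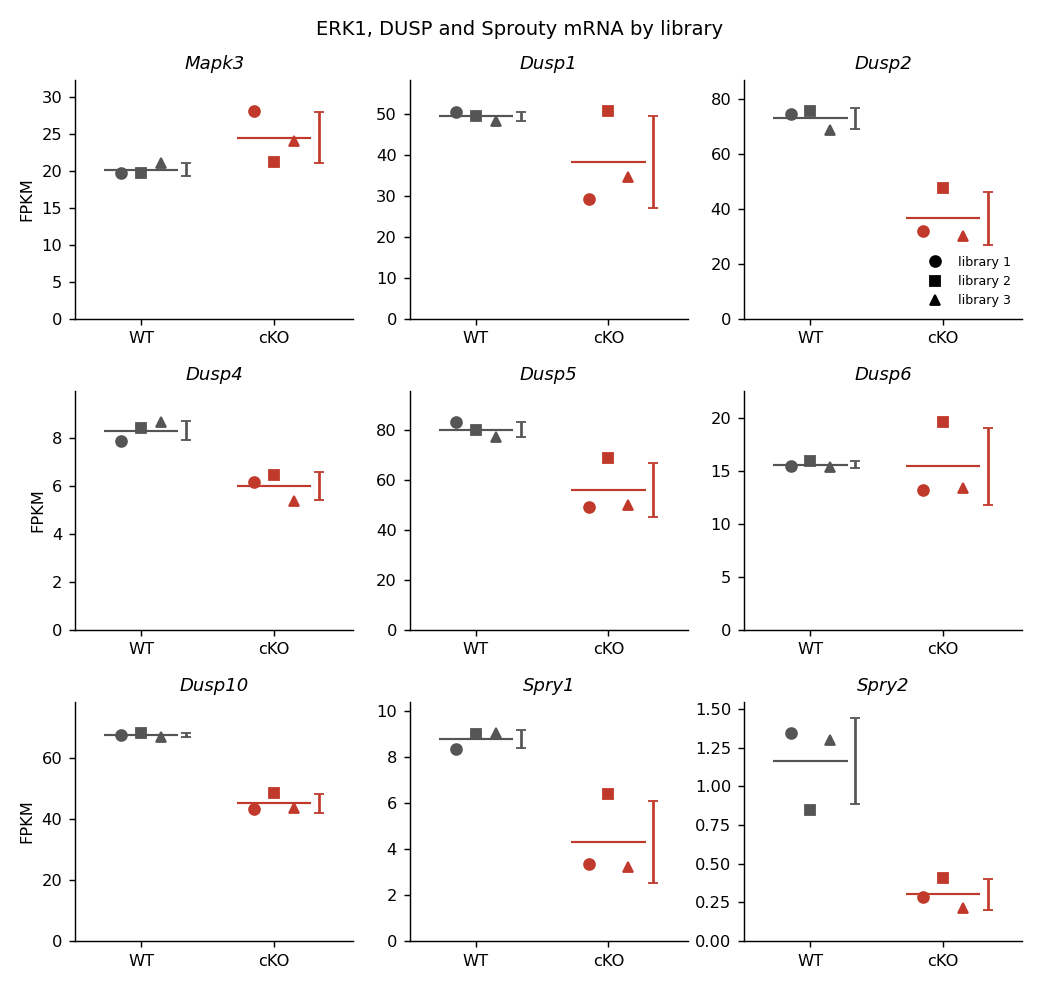
FPKM (vertical axes, each from 0) of the 9 genes in the 3 WT libraries (grey) and the 3 cKO libraries (red), with symbols for the library number, horizontal lines for the group means and bars for the SD (n = 3). The cKO points of *Dusp2*, *Dusp4*, *Dusp5*, *Dusp10*, *Spry1* and *Spry2* all lie below the WT points, and the cKO 2 square is the highest cKO point in every panel except that of *Mapk3*.

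*Dusp5* and *Dusp2*, which encode inducible phosphatases of the nucleus, were the most abundant of the 9 in WT. DUSP5 acts on ERK, and DUSP2, also called PAC-1, was described as an early gene of activated T cells. *Dusp2* (chr2:127336159-127338376 of GRCm38, plus strand) had an FPKM of 74.5, 75.6 and 68.6 in WT and of 31.8, 47.5 and 30.2 in cKO 1, 2 and 3. The groups did not overlap, and cKO 1 and cKO 3 were at 43.6% and 41.4% of the WT mean while cKO 2 was at 65.1%. On the log2 scale *Dusp2* differed by -1.01 (standard error 0.16, adjusted p = 0.00156 from limma). On this scale it was the 1 member called with a difference of 1 or more in size, where 4.71% of all genes tested were lower and 3.88% higher by that much. With 0.1 added to FPKM in place of 1, *Spry1* (-1.08) passed that size as well, beside *Dusp2* (-1.03). *Dusp5* (chr19:53529109-53542431, plus strand) had an FPKM of 83.0, 80.0 and 77.1 in WT and of 49.19, 68.44 and 49.96 in cKO. Again cKO 2 lay nearest to WT, at 85.5% of its mean, and cKO 1 and cKO 3 lay together at 61.5% and 62.4%. *Dusp5* had a log2 difference of -0.53 (standard error 0.13, adjusted p = 0.00860 from limma), which became -0.19 (adjusted p = 0.247) once values were corrected for the GC content and length of transcripts. An antisense gene, AC137853.2, overlaps *Dusp5*, and although the libraries kept the strand, whether the counting used it is not stated, so reads of both genes cannot be told apart.

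*Dusp1* and *Dusp4* encode MKP-1 and MKP-2, nuclear phosphatases with activity on ERK, JNK and p38. *Dusp1* (chr17:26505590-26562128, minus strand), a classical immediate early gene, had an FPKM of 50.7, 49.7 and 48.4 in WT and of 29.2, 50.9 and 34.7 in cKO. The value of cKO 2 lay above all 3 WT values, whereas cKO 1 and cKO 3 were at 58.9% and 70.1% of the WT mean, so the groups overlapped. The fitted difference of *Dusp1* was -0.40 on the log2 scale (standard error 0.18, adjusted p = 0.0829 from limma), and it was -0.61 (adjusted p = 0.000573) without cKO 2 and -0.23 (adjusted p = 0.224) without cKO 1. *Dusp1* shares its annotated span with *Ergic1* on the opposite strand, whose FPKM was 11.4 to 12.0 in WT and 7.72 to 10.1 in cKO. *Dusp4* (chr8:34807297-34819894, plus strand) was far less abundant than *Dusp5*, with an FPKM of 7.84, 8.40 and 8.65 in WT and of 6.15, 6.46 and 5.34 in cKO. All 3 cKO libraries lay below WT and close to each other, between 64.4% and 77.8% of the WT mean. *Dusp4* differed by -0.42 on the log2 scale (standard error 0.084, adjusted p = 0.00411 from limma). With values corrected for GC and length the difference was -0.083 (adjusted p = 0.379).

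*Dusp10* and *Dusp6* encode phosphatases with different preferences among the MAP kinases. DUSP10, or MKP-5, acts mainly on JNK and p38. *Dusp10* (chr1:184013302-184075636, plus strand) had an FPKM of 67.4, 68.1 and 66.8 in WT and of 43.1, 48.6 and 43.6 in cKO. Its cKO libraries lay close together, with a coefficient of variation of 6.81% against 12.2% for the median gene tested in cKO. *Dusp10* had a log2 difference of -0.57 (standard error 0.067, adjusted p = 0.000477 from limma), and of -0.64 (adjusted p = 0.000533) with values corrected for GC and length. It overlaps *1700056E22Rik* on the opposite strand, which had an FPKM of 2.58 to 3.08 in WT and of 1.72 to 1.96 in cKO.

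DUSP6, or MKP-3, is the cytoplasmic phosphatase of ERK. *Dusp6* (chr10:99263231-99267489, plus strand) had an FPKM of 15.4, 15.9 and 15.3 in WT and of 13.2, 19.6 and 13.4 in cKO. The cKO libraries lay on both sides of WT, with cKO 2 above and cKO 1 and cKO 3 below all WT values. For *Dusp6* the log2 difference was -0.037 (standard error 0.14, adjusted p = 0.830 from limma), and its sign depended on the cKO library left out. It was -0.20 (adjusted p = 0.00861) without cKO 2, 0.058 (adjusted p = 0.743) without cKO 1 and 0.044 (adjusted p = 0.819) without cKO 3.

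The Sprouty genes, whose products restrain Ras and RAF after receptor engagement, were at low levels in both genotypes and lower in cKO. *Spry1* (chr3:37639947-37644598, plus strand) had an FPKM of 8.35, 8.98 and 9.03 in WT and of 3.36, 6.38 and 3.21 in cKO. In cKO 1 and cKO 3 the level of *Spry1* was 38.3% and 36.5% of the WT mean and in cKO 2 it was 72.6%, with no overlap between the groups. A gene on the opposite strand, *Gm42922*, overlaps *Spry1*. *Spry1* differed by -0.93 on the log2 scale (standard error 0.20, adjusted p = 0.00595 from limma), and with values corrected for GC and length by -0.54 (adjusted p = 0.0570). *Spry2* (chr14:105891947-105896819, minus strand) was listed at an FPKM of 1.34, 0.845 and 1.30 in WT and of 0.282, 0.410 and 0.213 in cKO. With its 1 coding transcript of 2087 nucleotides, these values stand for about 53, 33 and 51 fragments in WT and for 7, 16 and 7 in cKO. *Spry2* fell short of the FPKM filter, and the exact two-sided permutation test on FPKM gave p = 0.1, the smallest that 3 libraries against 3 allow. In a fit without the filter, over 16452 genes, the log2 difference of *Spry2* was -0.73 (adjusted p = 0.00363 from limma). That scale understates the change of so low a gene, whose mean FPKM was 1.16 ± 0.276 (SD, n = 3) in WT and 0.302 ± 0.0998 (SD, n = 3) in cKO.

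*Mapk3* (chr7:126759601-126765819, plus strand) had an FPKM of 19.7, 19.7 and 21.1 in WT and of 28.1, 21.2 and 24.1 in cKO. The groups did not overlap, although cKO 2, at 105% of the WT mean, was just above the highest WT value. Its log2 difference was 0.26 (standard error 0.11, adjusted p = 0.0690 from limma). For *Mapk3* the difference was 0.36 (adjusted p = 0.00606) without cKO 2, 0.16 (adjusted p = 0.127) without cKO 1 and 0.49 (adjusted p = 0.00476) with values corrected for GC and length, and it turned to -0.28 (adjusted p = 0.0382) when all libraries were given equal FPKM totals. That scaling moved the median of all genes tested to -0.45, so *Mapk3* lay above the median gene in both.

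The order of levels among the 9 genes, as FPKM and so per transcript length, changed between the genotypes. In WT it ran from *Dusp5* (mean 80.0) and *Dusp2* (72.9) to *Dusp10* (67.4), *Dusp1* (49.6), *Mapk3* (20.2), *Dusp6* (15.6), *Spry1* (8.79), *Dusp4* (8.30) and *Spry2* (1.16). Of neighbours in this order, *Spry1* and *Dusp4* overlapped between libraries and the others did not. In cKO, *Dusp10* (45.1) followed *Dusp5* (55.9), then came *Dusp1* (38.3) and *Dusp2* (36.5), and *Dusp4* (5.98) stood before *Spry1* (4.32), with overlap between *Dusp10* and *Dusp1*, between *Dusp1* and *Dusp2* and between *Dusp4* and *Spry1*, and none between the other neighbours. Added together, the 6 DUSP members had an FPKM of 285 to 299 in WT, while the cKO libraries 1, 2 and 3 had 173, 241 and 177. *Dusp1*, *Dusp2*, *Dusp5* and *Dusp10* together made up 69.9% to 71.6% of the summed FPKM of 20 DUSP genes in WT and 56.9%, 63.5% and 57.5% in the cKO libraries. In this share, as in the sum, cKO 2 stood between WT and the other cKO libraries. The summed FPKM of the 20 genes also holds *Dusp11*, at 52.6 to 55.6 in WT and at 65.3 to 68.1 in cKO, and its rise lowers the share.

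Library cKO 2 had the highest cKO level of each inhibitor gene, by margins that differed between genes. It was the highest of the 3 cKO libraries in all 7 tested DUSP and Sprouty members, and in *Spry2*. Over all genes tested cKO 2 was the highest cKO library in 35.7%, and over all genes called lower in 53.9%. It was the cKO library nearest to the WT mean in 7 of the 8 tested members, against 51.7% of all genes. Between cKO libraries the coefficient of variation was 41.4% for *Spry1*, 29.4% for *Dusp1*, 26.2% for *Dusp2* and 23.5% for *Dusp6*, against 12.2% for the median gene, while in WT it lay between 2.08% and 5.18% for these 4 genes. It was 19.5% for *Dusp5*, and for *Dusp4* (9.62%) and *Dusp10* (6.81%) it was below that of the median gene. In the level of *Nsrp1* itself, cKO 2 lay between cKO 1 and cKO 3. Without cKO 2, limma called 7 of the 8 tested members lower, against 34.4% of all genes, and 1, *Mapk3*, higher, against 40.1%. The part of a difference between cKO libraries in these values was not tested.

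The 20 ERK-induced genes set beside the members, most of them immediate early genes, gave a similar picture with exceptions. Of 17 tested, 15 fell and 0 rose, against 29.8% and 35.8% of all genes tested. Their median log2 difference was -0.76. In *Junb*, *Jun* and *Nr4a1* cKO 2 was the highest cKO library, as in the DUSP and Sprouty genes, with *Junb* at 29.1%, 51.1% and 29.6% of the WT mean in cKO 1, 2 and 3. *Nr4a1*, an orphan nuclear receptor gene induced by TCR signals, was at 34.2%, 66.8% and 33.4%. For the activation marker *Cd69* (60.3%, 95.2% and 72.7%) and for *Fos* (48.4%, 86.8% and 52.2%), cKO 2 likewise lay nearer to WT. The early growth response genes *Egr1*, *Egr2* and *Egr3* differed in order, since cKO 2 was the lowest cKO library in each, as it was in *Myc* (68.2%, 58.7% and 60.2%). Over the list, cKO 2 was the highest cKO library in 11 of the 17 genes, or 64.7%, against 53.9% of all genes called lower. *Egr1* stood at 43.8%, 30.7% and 35.3% of the WT mean, a log2 difference of -1.37 (adjusted p = 0.000191 from limma), or of -0.79 with values corrected for GC and length. The AP-1 genes *Fosb* and *Fosl2* were low in every cKO library. Their mean FPKM in cKO was 0.211 and 0.149 times that in WT, against 0.366 times for *Egr1*. On the log2(FPKM + 1) scale they differed by -1.40 and -1.38. With 0.1 added in place of 1, they differed by -2.14 and -2.53, and *Egr1* by -1.46. *Ier2*, another immediate early gene, had -1.18 on the log2(FPKM + 1) scale. *Id3* and *Mcl1* did not pass the test, and cKO 2 lay above the WT mean in both.

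**Figure D2:**
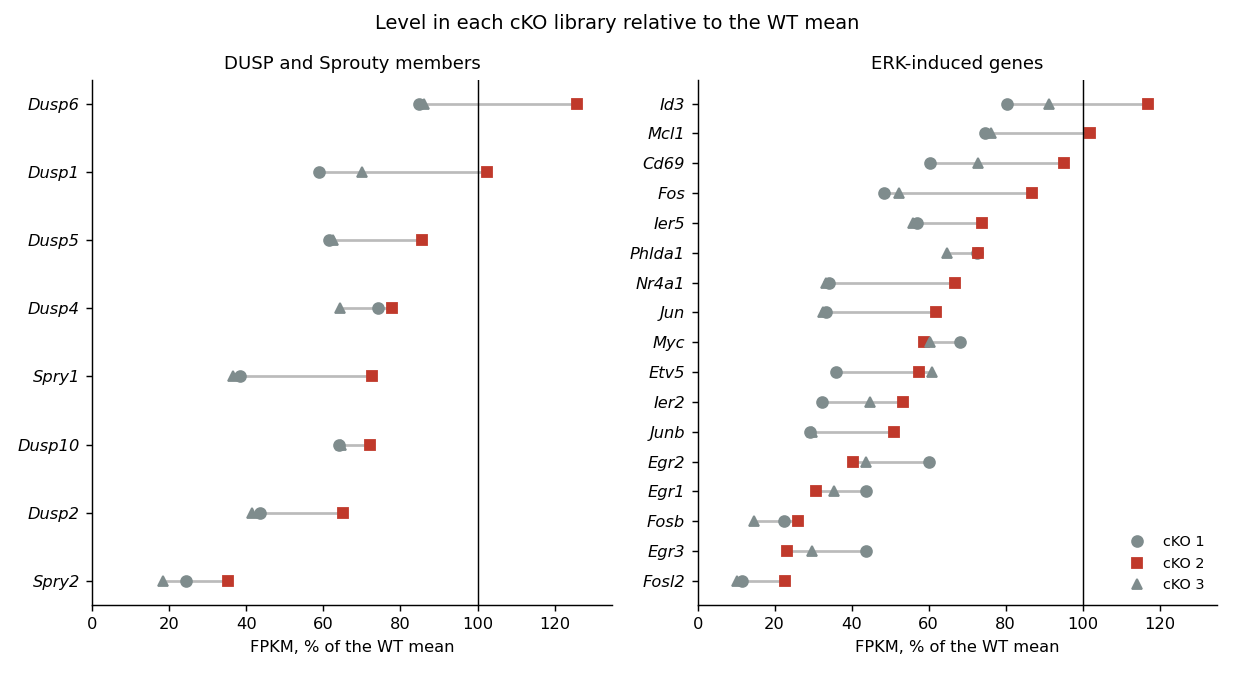
FPKM in each cKO library as a percentage of the WT mean (horizontal axis, the line at 100 is the WT mean) for the 8 DUSP and Sprouty genes (left) and the 17 tested ERK-induced genes (right), with cKO 2 in red and cKO 1 and cKO 3 in grey. The cKO 2 squares lie to the right of the other symbols in all 8 rows on the left, and to their left for *Egr1*, *Egr2*, *Egr3* and *Myc*.

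Upstream of ERK, *Braf* and the MEK genes did not pass the test while several adaptors and regulators were lower. Of 23 genes of the ERK cascade, all tested, 13 fell and 3 rose, against 29.8% and 35.8% of all genes. Their median log2 difference was -0.27. Under equal FPKM totals 20 were called lower and 0 higher, against 59.9% and 8.74% of all genes. The log2 differences of *Braf*, *Map2k1* and *Map2k2* (the last 2 encode MEK1 and MEK2) were -0.020, -0.026 and -0.23, none past the test. *Grb2* and *Sos1*, which couple receptors to Ras, had -0.45 and -0.59, and *Nf1* and *Rasa1*, which switch Ras off, had -0.40 and -0.51, all past the test. *Mapk7*, which encodes ERK5, fell from 13.3, 13.7 and 13.5 to 6.65, 6.37 and 5.54, a log2 difference of -1.01 (adjusted p = 0.000146 from limma), or of -0.46 with values corrected for GC and length. Among the higher genes was *Rps6ka3* (0.31), which encodes a kinase activated by ERK. The other *Rps6ka* and *Mknk* genes of the list were lower and past the test. These were *Rps6ka1* (-0.62), *Rps6ka2* (-0.73), *Mknk1* (-0.31) and *Mknk2* (-0.68).

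**Figure D3:**
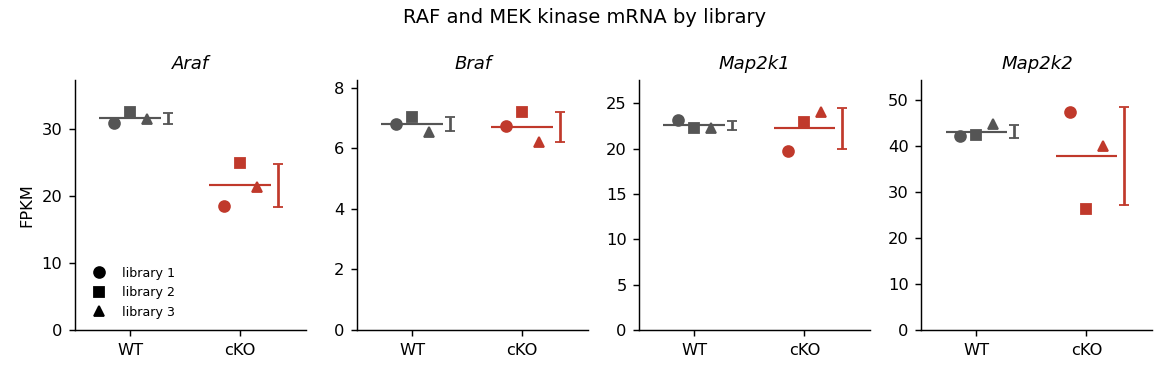
FPKM (vertical axes, each from 0) of RAF and MEK kinase genes in the WT (grey) and cKO (red) libraries, with symbols for the library number, lines for means and bars for the SD (n = 3). *Araf* is lower in all cKO libraries, and *Braf*, *Map2k1* and *Map2k2* overlap between the genotypes.

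Among the other genes of these families, *Spred2* resembled *Spry1* in its decrease. *Spred2*, which encodes a Sprouty-related inhibitor of Ras signaling, had an FPKM of 13.3, 14.0 and 12.5 in WT and of 7.81, 6.41 and 6.54 in cKO, a log2 difference of -0.85 (adjusted p = 0.000365 from limma). Unlike in *Spry1*, cKO 2 was its lowest library. *Spred1* did not pass the test (-0.029), *Spry4* and *Spred3* had an FPKM below 1 in every library, and *Spry3* was listed at 0. Of 14 other DUSP genes 8 were tested. Of these, 2 fell (*Dusp7*, an ERK phosphatase, at -0.56 and *Dusp22* at -0.55) and 2 rose (*Dusp11* at 0.30 and *Dusp19* at 0.54). Under equal FPKM totals, however, 7 were called lower and 0 higher, against 59.9% and 8.74% of all genes. In the JNK and p38 cascade, 8 of 12 tested genes fell and 0 rose, against 29.8% and 35.8% of all genes. Those that fell included *Mapk14*, the main p38 gene, at -0.52 and *Mapk11*, the p38 beta gene, at -1.45.

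**Figure D4:**
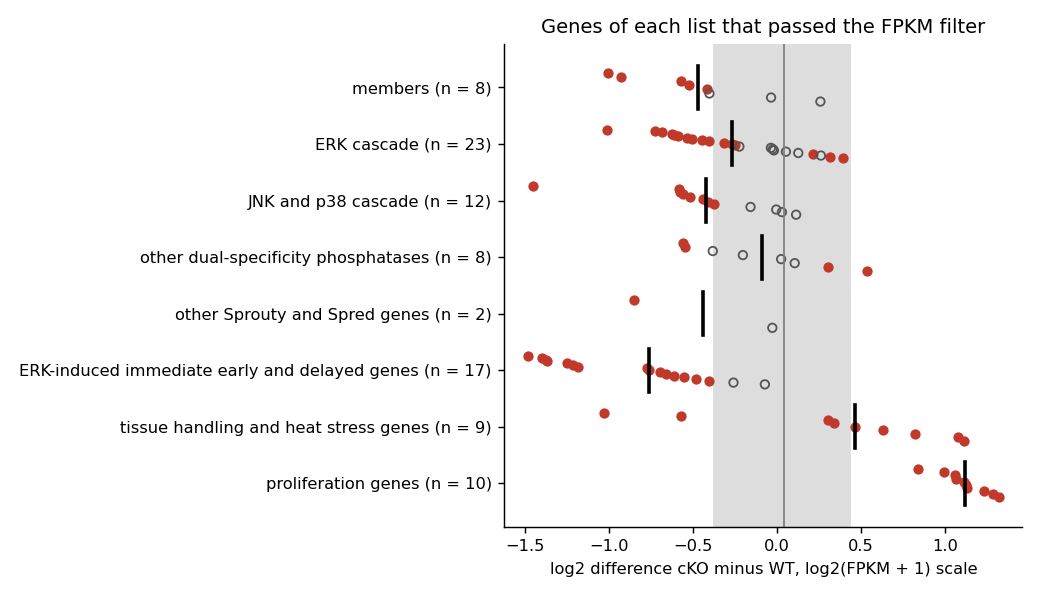
Log2 difference, cKO minus WT, on the log2(FPKM + 1) scale (horizontal axis) of each tested gene by list, filled red where the adjusted p from limma was under 0.05 and open where it was not, with a black bar at the list's median. The grey band spans the lower to the upper quartile of all 10326 genes tested, from -0.37 to 0.43, and the grey line is their median. The medians of the members (-0.47) and of the ERK-induced genes (-0.76) lie to the left of the band and that of the proliferation genes (1.12) to the right.

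Some genes that mark other cells or other states fell as the inhibitor genes did, and others rose. The counts below stand against 29.8% of all genes tested called lower and 35.8% called higher. Under equal FPKM totals these shares were 59.9% and 8.74%. Of 10 markers of mature single positive T cells 6 fell, namely *Ccr7*, *S1pr1*, *Klf2*, *Il7r*, *Itgb7* and *Gimap4*, with log2 differences between -2.64 and -1.67, and 3 rose (8 lower and 0 higher under equal FPKM totals). Their summed FPKM was 1135 to 1139 in WT and 1103 to 1412 in cKO, since the abundant *Cd52*, *S100a10* and *Gimap6* made up most of it. In bulk libraries fewer cells of a type and less RNA per cell cannot be told apart, and the part of maturing cells in the decrease of the DUSP and Sprouty genes was not tested. Of 6 markers of double negative thymocytes 4 fell and 0 rose (summed FPKM of 41.9 to 43.4 in WT and 21.0 to 25.7 in cKO), *Dtx1* by the most, at -1.26, or -0.58 with values corrected for GC and length. Markers of B cells (*Cd79a*, *Ms4a1*, *Pax5* and *Blnk*) and of thymic stroma (*Krt5*, *Krt8*, *Foxn1*, *Col1a1*, *Col3a1* and *Cdh5*) were below an FPKM of 1 or at 0 in all libraries. Of the tested ones, *Epcam*, an epithelial marker, was at 3.44, 3.71 and 3.47 in WT and at 1.88, 3.59 and 2.47 in cKO, with cKO 2 the highest cKO library as in the inhibitor genes. For *Epcam* the groups overlapped, and it did not pass the test (adjusted p = 0.0964 from limma). *Cd79b* was at 21.5 to 23.0 in WT and 25.6 to 38.3 in cKO and *Pecam1*, an endothelial marker that thymocytes also express, at 43.3 to 45.4 and 49.7 to 54.8. The 8 myeloid and dendritic markers summed to 9.04 to 12.2 in WT and to 10.02 to 12.5 in cKO. Of the globin genes 3 rose, with a sum over 6 erythroid markers of 2.09 to 2.97 in WT and of 15.3 to 31.5 in cKO, namely *Hbb-b1*, *Hba-a1* and *Hbb-b2*. All 10 proliferation genes rose, and *Mki67* was at 97.1 to 100.8 in WT and at 178 to 257 in cKO. Of 12 genes that respond to tissue handling or heat 9 were tested, and 7 rose, among them the chaperones *Hspa8* (1.08) and *Hsp90aa1* (1.11), while 2 fell, among them *Zfp36* (-0.57). Under equal FPKM totals 2 of these 9 were called higher and 3 lower, against 8.74% and 59.9% of all genes. *Atf3*, which answers quickly to handling, was at an FPKM of 0.244 at most in any library. The part of any of these in the inhibitor genes was not tested.

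**Figure D5:**
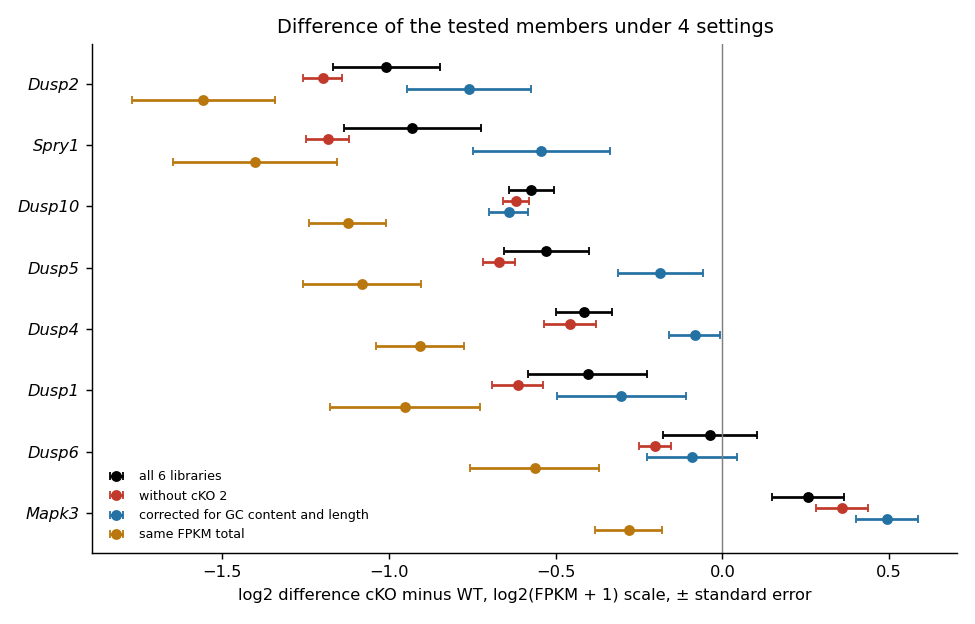
Log2 difference, cKO minus WT, on the log2(FPKM + 1) scale with its standard error (horizontal axis) of the 8 tested members with all 6 libraries (black), without cKO 2 (red), with values corrected for GC and length (blue) and under equal FPKM totals (ochre). The 6 DUSP genes and *Spry1* lie left of 0 in all 4 settings, *Dusp4* with -0.083 closest to it after the correction among the 5 called lower, and *Mapk3* lies on both sides of 0.

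GC content and transcript length differed among the members, which bears on the correction for both. The longest coding transcripts of *Dusp2*, *Dusp4*, *Dusp5*, *Spry1* and *Mapk3* had a GC content of 56.0% to 59.2%, higher than in at least 81.1% of the genes with a value, and *Dusp10* had 48.4%. With values corrected for both, 2 members were called lower, *Dusp2* (-0.76, adjusted p = 0.0121 from limma) and *Dusp10*, against 25.1% of all genes, and 1, *Mapk3*, was called higher, against 31.7%. Under equal FPKM totals, all 8 tested members were called lower, as were 59.9% of all genes (8.74% were higher), and those below the shifted median of -0.45 were the 6 DUSP genes and *Spry1*.

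Genes with the most similar pattern across the 6 libraries were sought for *Dusp10* and *Mapk3*, the members with the smallest p among those lower and among those higher. For *Dusp10* they were *Phf12*, *Rnf44* and *Pou6f1*, with Pearson's r of 0.9998, 0.9996 and 0.9994 on log2 values, and 1648 genes had an r above 0.95. *Phf12*, for one, had an FPKM of 36.5, 36.9 and 36.4 in WT and of 14.3, 18.5 and 14.7 in cKO. For *Mapk3* they were *Cyb5d2* (0.9973), *1700018L02Rik* (0.9956) and *Lnpep* (0.9894), and 204 genes had an r above 0.95. With 3 libraries of each genotype these values mostly say that a gene separates the genotypes and shares the order of the cKO libraries.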

How the data were processed

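Poly(A)-enriched, strand-specific libraries of sorted DP thymocytes were sequenced as paired-end reads. From reads cleaned by fastx trimmer and aligned by Tophat to mm10, the authors derived FPKM with Cufflinks, deposited as 1 value for each gene symbol in every library. Tool versions, gene annotation and strand setting are not given in the sources used here. The authors' gene counts, which they tested with DESeq2, were not used here. Libraries were grouped by their titles, and the members and gene lists were chosen with earlier results of these data known.

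Size factors by the median of ratios were applied to the libraries. log2(FPKM + 1) was fitted by genotype with limma 3.58.1 (lmFit, eBayes with trend) in R 4.3.3 over the 10326 genes that reached an FPKM of 1 in 3 libraries or more, with Benjamini-Hochberg adjustment at 0.05. Tested members and list genes are those in this fit. *Spry2* was tested by exact two-sided permutation with scipy 1.17.1 in Python 3.11.15. Named genes were the 9 members, *Nsrp1*, core kinases, Sprouty and Spred genes, list genes called with a log2 difference of 1 or more in size, and the 3 genes most correlated with the top member in each direction. Some genes and comparisons of this rule are not reported here. Others named in the text were chosen after their values were seen.

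Symbols were matched to GENCODE M21 (GRCm38, the assembly of mm10), 22110 directly and 662 through synonyms. Depth was estimated at 2614 coding genes with 1 transcript over 1000 nucleotides, with an assumed fragment length of 200. Counting noise was taken over genes with at least 10 fragments. GC content and length of the longest coding transcript were corrected by natural splines (5 degrees of freedom each) in every library. Promoters are from RefSeq. Figures were drawn with matplotlib 3.10.9.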

Additional observations from a re-analysis of the deposited data

How the results depend on the processing

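With 10326 genes tested, 6766 were called, and 5 members were called lower and 0 higher. With WT reduced to 1 mean profile, 1641 genes and 0 members were called, and *Dusp2* had an adjusted p of 0.0504 from limma. With cKO 2 left out as well, a setting chosen after seeing the data, 4423 genes and 5 members were called. Under equal FPKM totals 8 members were called lower, and *Mapk3* (-0.28) changed sign. With values corrected for GC and length, also chosen after seeing the data, 2 members were called lower and 1, *Mapk3*, higher. Under a pseudocount of 0.1, no scaling, no trend and the replicate block the same number of members was called lower, 5. Of all 10326 genes tested, these settings called 3041, 3058, 3073 and 2954 lower. With quantile normalization 6 members were called lower, against 3089 of 10326 genes. Without the filter on low values it was also 6, against 3625 of 16452 genes. With each library left out in turn the number of members called lower lay between 5 and 7. The number called higher lay between 0 and 1, where the 1 came without cKO 2. Over all genes, these fits called from 2324 of 10104 (without WT 1) to 3526 of 10252 (without cKO 2) lower. The correlation of deviations from the group means was -0.022, 0.038 and 0.031 for same-numbered libraries. It cannot decide whether the replicate numbers pair the libraries, since WT varied by little more than sampling noise. The fit with the replicate block called 6467 genes. Where calls were lost, the cause was not tested. Estimated depth limits *Spry2*, and precision elsewhere is set by 3 libraries per genotype.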
